A study of Mus musculus with 16 samples.

Results

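The 10 genes described here encode glycosyltransferases of the gut mucosa: the fucosyltransferases Fut2 and Fut4, the N-acetylgalactosaminyltransferase B4galnt2, the sialyltransferases St3gal3, St3gal4, St3gal6 and St6galnac6, and the core enzymes C1galt1, Gcnt1 and Gcnt3. They were taken by symbol from the 21965 genes of the count table, all 10 were found, and all 10 were among the 13811 genes that passed the filter on low counts. RNA had been sequenced from the ileum of 16 adult male C57BL/6 mice, 1 library per mouse. WT PF mice (n = 4) and fat-1 PF mice (n = 4) were pair-fed the control liquid diet without EtOH. WT EtOH mice (n = 3) and fat-1 EtOH mice (n = 5) received the liquid diet with EtOH raised in steps to 6% (v/v), which was held for the last 3 weeks. The fat-1 mice carried 1 copy of a C. elegans desaturase transgene that is expressed in all tissues and makes n3 fatty acids from n6 fatty acids. WT mice were their littermates, and fat-1 mice ate the same 2 diets. Libraries 1 to 8 were those of the PF mice and 9 to 16 those of the EtOH-fed mice, so diet and library order cannot be told apart. The study named Gcnt1, St3gal3 and St6galnac6 among genes that changed in these same mice, so they are not independent choices.

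Mucins and many membrane proteins of the intestine carry sugar chains linked to serine or threonine. The first sugar, N-acetylgalactosamine, is added by the GALNT enzymes. C1galt1 adds galactose to it and makes the core 1 structure, and Gcnt1 and Gcnt3 branch that core with N-acetylglucosamine. The chains are then extended and capped with fucose or sialic acid. These caps are ligands and nutrients for gut bacteria and attachment sites for pathogens, and fucosylation and sialylation are known to change along the length of the gut.

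The libraries held 8422645 to 11438539 counts on genes, so that 3 counts were 0.246 to 0.421 CPM (counts scaled to a common library size, adjusted by TMM). Some libraries stood apart in marker genes of gut regions. The summed level of 10 large intestine markers was 252 to 387 CPM in 13 mice, but 5107 CPM in WT EtOH replicate 2 and 12360 and 13445 CPM in fat-1 EtOH replicates 3 and 4, of which Car1 alone, the carbonic anhydrase of colon epithelium, held 4041, 11157 and 12208 CPM. Hoxb13 and Hoxd13 had at most 3 counts in every mouse. Both fat-1 EtOH libraries had the lowest proximal small intestine sums (703 and 742 CPM) and the lowest Paneth cell sums (128 and 117 CPM) of the 16. The highest proximal sums were those of replicates 2 and 4 in the fat-1 PF group (82777 and 80534 CPM, against 703 to 36780 CPM elsewhere), in which Slc10a2, the bile acid transporter that defines the ileum, stood at 7.58 and 3.56 CPM against 394 to 1382 CPM in the other 14 mice. Replicates 3 and 4 of the fat-1 EtOH group had low ileum sums too (7 markers, 1144 and 2125 CPM). The 2 libraries with low Slc10a2 held 946 and 683 CPM, and sums elsewhere ran from 3049 to 9585 CPM. WT EtOH replicate 2, at 7982 CPM, lay within that last range. Some position markers also separated the diets in every mouse, while the summed ileum markers and the summed large intestine markers overlapped between the diets. Lct, the lactase of the proximal small intestine, was 78.3 CPM or more with the PF diet and 2.30 CPM or less with EtOH, Gata4, a proximal transcription factor, was 25.6 to 156 CPM against 1.11 CPM or less, and Hoxb6, a position gene of the gut, was 1.54 to 18.9 CPM against 31.8 to 72.4 CPM. The smooth muscle markers summed to 953 to 1514 CPM with the PF diet and to 1963 to 4163 CPM with EtOH. The part of gut position and of muscle in the differences between diets was not tested. Fat-1 EtOH replicate 5 stood apart in lymphoid genes, with a B-cell follicle sum of 637 CPM against 5.80 to 136 CPM in the other mice and a T cell sum of 234 CPM against 17.8 to 64.3 CPM. Among fat-1 EtOH mice it was lowest for Fut4, B4galnt2, C1galt1 and Gcnt3, and without it Gcnt3 passed the test in fat-1 mice, and the part of lymphoid tissue in this was not tested. The 11 epithelium markers summed to 12002 to 21376 CPM in every library. Changes that passed the test in fat-1 mice are given with and without fat-1 EtOH replicates 3 and 4, and with and without fat-1 PF replicates 2 and 4. In bulk tissue, fewer cells of one type and less RNA per cell cannot be told apart.

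The 10 genes differed widely in level per length of exon. In WT PF mice St3gal4 was highest, with a median of 824 CPM per kb, followed by B4galnt2 with 214, Gcnt3 with 42.5, C1galt1 with 18.4 and Fut4 with 10.7, and no neighbours among these overlapped between mice. St3gal6 (4.18), Gcnt1 (3.64), Fut2 (2.83) and St3gal3 (2.10 CPM per kb) overlapped each with the next, and St6galnac6 was lowest with 1.65. The first 4 places were held by the same genes in the same order in all 4 groups, although the ranges of C1galt1 and Fut4 overlapped in fat-1 PF mice, and those of several pairs of neighbours did in fat-1 EtOH mice. The lower places changed: Fut2 was last in fat-1 PF mice (median 1.26 CPM per kb) and 5th in fat-1 EtOH mice (9.59), and St3gal6 was 6th in both PF groups and last in WT EtOH mice (2.16). In fat-1 EtOH mice St6galnac6 ran from 2.11 to 99.3 CPM per kb, the widest ratio of any member in any group.

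**Figure D1:**
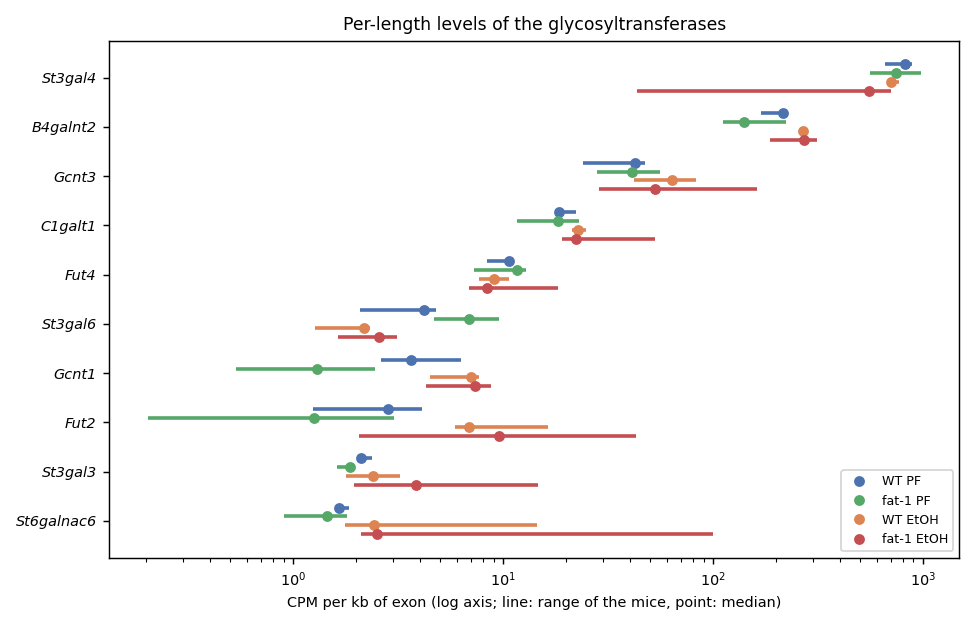
Levels of the 10 glycosyltransferases per kb of exon (log axis, CPM per kb), with a point for the median and a line for the range of the mice of each group. St3gal4 and B4galnt2 lie above the rest in all groups by median, and the lines of fat-1 EtOH mice are the longest for St6galnac6, Fut2 and St3gal4.

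Between fat-1 EtOH and fat-1 PF mice, 7 of the 10 genes passed edgeR's test, 6 of them higher and 1 lower in EtOH-fed mice. Of all genes tested, 37.4% passed in this comparison, 18.7% higher and 18.8% lower. St6galnac6 rose 26.5-fold, Fut2 13-fold, Gcnt1 5.05-fold, St3gal3 3.76-fold, B4galnt2 1.69-fold and C1galt1 1.68-fold, and St3gal6 fell 2.84-fold. Gcnt3, St3gal4 and Fut4 did not pass. Without fat-1 EtOH replicates 3 and 4, 3 of the 10 passed (Gcnt1, B4galnt2 and St3gal6, with 30.8% of all genes), and without WT EtOH replicate 2 as well, 4 passed, with St6galnac6 as the fourth (29.7% of all genes). Without fat-1 PF replicates 2 and 4 only Gcnt1 passed (13.9% of all genes). In that fit the log2 fold changes of St6galnac6 and St3gal3 were as large as with all mice and their standard errors were larger, while those of Fut2, St3gal6, Gcnt1, C1galt1 and B4galnt2 were smaller. DESeq2 called the same 7 (40.3% of all genes), and limma voom with sample quality weights called 3, Gcnt1, B4galnt2 and St3gal6 (26.8% of all genes). The median log2 fold change was 0.05 over all genes tested and 0.20 with upper-quartile scaling, under which the 7 calls stayed.

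Between WT EtOH and WT PF mice, none of the 10 passed edgeR's test, in which 0.0796% of all genes passed. St3gal6 alone reached an unadjusted p under 0.05, as 14.1% of all genes did. DESeq2 called 0 of the 10 (1.97% of all genes) and limma voom called 1, St3gal6 (20.7% of all genes). Whether the genotypes differed in their response to EtOH was tested with an interaction term, for which edgeR, DESeq2 and limma voom each called 0 of the 10. Each tool called 0.0% of all genes there, so the responses of WT and fat-1 mice were not shown to differ for any member. At an unadjusted p under 0.05, edgeR gave 2 members, Gcnt1 (1.68 ± 0.55 SE, edgeR adjusted p = 0.595) and St3gal3 (1.70 ± 0.77 SE, edgeR adjusted p = 0.595), and 8.26% of all genes.

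**Figure D2:**
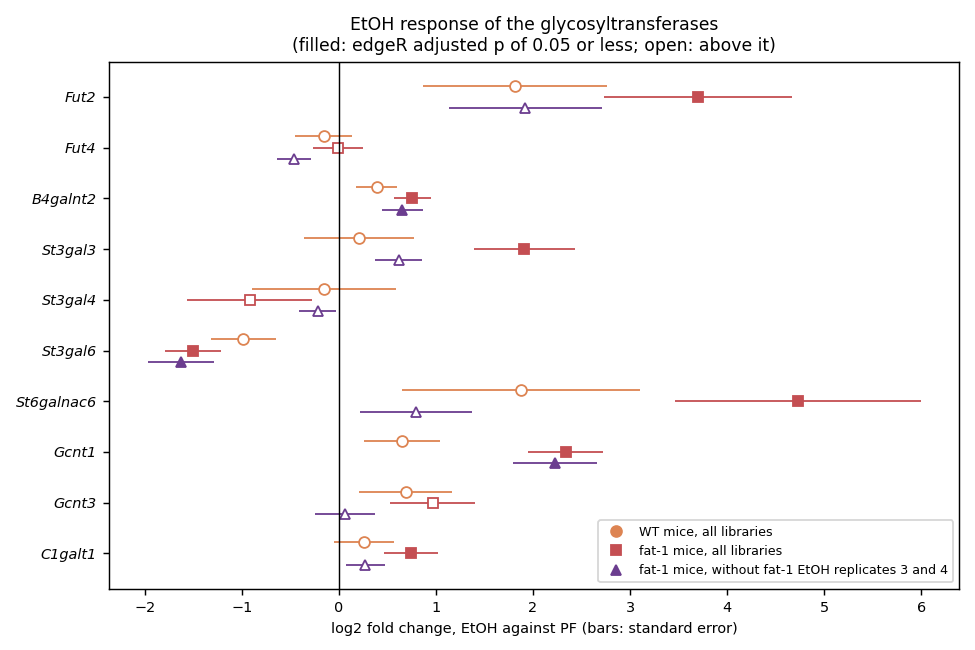
Log2 fold change of each glycosyltransferase, EtOH against PF, with its standard error, in WT mice (circles), in fat-1 mice (squares) and in fat-1 mice without fat-1 EtOH replicates 3 and 4 (triangles). Filled symbols passed edgeR's test: 7 squares, 3 triangles and no circle.

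Fut2 (ENSMUSG00000055978, chromosome 7 from 45648591 to 45666394, minus strand, GRCm38 here and below) adds fucose to terminal galactose in the α1,2 linkage and makes the H antigen of the mucosa. It is known to be induced in small intestinal epithelium by bacteria. Fut2 stood at 19.7, 11.1, 6.78 and 22.3 CPM in replicates 1 to 4 of WT PF mice and at 12.1, 1.54, 16.4 and 1.105 CPM in those of fat-1 PF mice. With EtOH it stood at 37.3, 88.9 and 32.01 CPM in replicates 1 to 3 of WT mice and at 52.1, 11.2, 232, 188 and 24.8 CPM in replicates 1 to 5 of fat-1 mice. Every WT EtOH mouse lay above every WT PF mouse, while fat-1 EtOH replicate 2 lay within the range of the fat-1 PF mice, and the 3 libraries with large intestine genes were the 3 highest of all. The log2 fold change was 3.70 ± 0.96 (SE, edgeR adjusted p = 0.00899) in fat-1 mice and 1.81 ± 0.95 (SE, edgeR adjusted p = 0.402) in WT mice. Over mice, the exact permutation test gave p = 0.0476 in fat-1 mice and p = 0.0571 in WT mice, the smallest that 3 against 4 mice allow. Without fat-1 EtOH replicates 3 and 4, the change in fat-1 mice was 1.92 ± 0.79 (SE, edgeR adjusted p = 0.0823), and without all 3 of these libraries that in WT mice was 1.21. The lowest values were those of fat-1 PF replicates 2 and 4 (11 and 9 counts), which had the highest proximal small intestine sums, and without these 2 libraries the change was 2.83 ± 1.11 (SE, edgeR adjusted p = 0.0967). Of the stretches of 75 bases in its exons, 1.98% also occur in Sec1, a neighbouring gene of the same family.

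Fut4 (ENSMUSG00000049307, chromosome 9 from 14748320 to 14752393, minus strand) adds fucose in the α1,3 linkage and makes Lewis x. Fut4 stood at 42.3, 44.7, 44.9 and 34.1 CPM in WT PF mice and at 47.4, 52.4, 29.7 and 47.9 CPM in fat-1 PF mice, replicate by replicate. The EtOH-fed mice had 36.7, 31.2 and 43.5 CPM (WT) and 32.02, 34.2, 74.3, 51.7 and 28.1 CPM (fat-1). The groups overlapped in every comparison, and only fat-1 EtOH replicate 3 lay above all PF mice. The difference between fat-1 EtOH and fat-1 PF mice was -0.01 ± 0.25 (SE, edgeR adjusted p = 0.984) on the log2 scale, and without fat-1 EtOH replicates 3 and 4 it was -0.47 ± 0.17 (SE, edgeR adjusted p = 0.0554). Of the summed Fut2 and Fut4 level per kb, Fut4 made up 67.0 to 89.8% in WT PF mice and 70.7 to 98.3% in fat-1 PF mice. In WT EtOH mice it was 31.9 to 64.4%, below every WT PF mouse, and in fat-1 EtOH mice 26.8 to 80.2%, with an overlap. Across the 13 libraries without the 3 that carried large intestine genes, Fut2 and Fut4 ran in opposite directions (Pearson's r = -0.65, Spearman's rho = -0.70), and over all 16 they did not (r = 0.02, rho = -0.18).

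B4galnt2 (ENSMUSG00000013418, chromosome 11 from 95865943 to 95914891, minus strand) adds N-acetylgalactosamine to sialylated galactose and makes the Sda (Cad) antigen of the gut. B4galnt2 stood at 385, 290.5, 372 and 366 CPM in WT PF mice and at 382, 270.1, 216 and 192 CPM in fat-1 PF mice. It stood at 459, 448 and 482 CPM in WT EtOH mice and at 440.5, 467, 538, 475 and 320.1 CPM in fat-1 EtOH mice. The 3 WT EtOH mice lay above all WT PF mice, and so did 4 of 5 fat-1 mice with EtOH relative to the fat-1 PF group. The mean of fat-1 mice was 448 ± 80.02 CPM (SD, n = 5) with EtOH and 265 ± 84.8 CPM (SD, n = 4) without, a log2 fold change of 0.76 ± 0.19 (SE, edgeR adjusted p = 0.0069) with an exact permutation p of 0.0317. In WT mice it was 0.39 ± 0.21 (SE, edgeR adjusted p = 0.415). Without fat-1 EtOH replicates 3 and 4 the value in fat-1 mice was 0.65 ± 0.21 (SE, edgeR adjusted p = 0.0302), and without fat-1 PF replicates 2 and 4 it was 0.59 ± 0.22 (SE, edgeR adjusted p = 0.091). The 2 fat-1 EtOH libraries with large intestine genes averaged 1.24 times the other 3. Of its exon bases, 15.3% lie opposite a noncoding gene, Gm11534, which is not among the genes of the table.

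The sialyltransferases differed in direction, and fat-1 EtOH replicates 3 and 4 held both the highest St6galnac6 levels and the lowest St3gal4 levels. RefSeq's promoter table (GRCm38.p6) held 11 entries for 8 of the 10 genes. The 250 bases before the annotated start are shown for St3gal3 (chr4:118134947-118135196, minus strand) and St3gal4 (chr9:35116865-35117114, minus strand), since these α2,3-sialyltransferases stood at opposite ends in fat-1 EtOH replicates 3 and 4. The stretch before St6galnac6 is annotated as the last exon of St6galnac4, its neighbour on the same strand, and is not shown. The St3gal4 window lies within the GENCODE gene, which has a start further upstream, and opposite an exon of 4930581F22Rik. The sequences are written 5′ to 3′, with matches to 4 motifs, on both strands, in capitals.
St3gal3: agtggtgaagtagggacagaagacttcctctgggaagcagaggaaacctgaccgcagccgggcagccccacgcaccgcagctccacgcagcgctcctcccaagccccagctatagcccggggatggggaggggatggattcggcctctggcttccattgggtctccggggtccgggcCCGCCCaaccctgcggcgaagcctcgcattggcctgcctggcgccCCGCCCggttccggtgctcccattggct
St3gal4: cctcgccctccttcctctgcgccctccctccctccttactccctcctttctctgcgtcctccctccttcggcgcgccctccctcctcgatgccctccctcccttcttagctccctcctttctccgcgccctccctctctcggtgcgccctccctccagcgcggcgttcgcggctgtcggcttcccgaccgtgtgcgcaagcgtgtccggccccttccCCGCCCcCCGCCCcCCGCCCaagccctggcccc
The TATA box was searched as TATAAA. The GC box was searched as GGGCGG, the core of GATA factors was searched as AGATAA and that of the CDX factors was searched as TTTATG. No match overlapped another in these windows. St3gal3 had 2 GC boxes and St3gal4 had 3 in a row close to the start. The GC content was 68.4% in St3gal3 and 72.8% in St3gal4, against a median of 52.4% over the 32851 entries of the table. GC boxes stood in 32.7% of all entries, TATA boxes in 12.4%, GATA cores in 9.99% and CDX cores in 10.8%. A match describes the letters only.

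St6galnac6 (ENSMUSG00000026811, chromosome 2 from 32599709 to 32620806, plus strand) adds sialic acid in the α2,6 linkage to inner sugars of glycolipids and glycoproteins and is known from colon epithelium. St6galnac6 stood at 8.09, 7.696, 7.78 and 8.83 CPM in WT PF mice and at 4.35, 8.703, 6.97 and 6.996 CPM in fat-1 PF mice. It stood at 11.7, 69.7 and 8.49 CPM in WT EtOH mice and at 10.2, 12.1, 478, 379 and 11.98 CPM in fat-1 EtOH mice. WT EtOH replicate 2 and fat-1 EtOH replicates 3 and 4 lay far above all others, and the remaining EtOH-fed mice lay between 8.49 and 12.1 CPM. Fat-1 EtOH replicates 3 and 4 averaged 429 CPM, 37.6 times the mean of the other 3 fat-1 EtOH mice. All 5 fat-1 EtOH mice lay above all fat-1 PF mice, and the log2 fold change was 4.73 ± 1.26 (SE, edgeR adjusted p = 0.0103) with an exact permutation p of 0.0159, the smallest that 5 against 4 mice allow. Without replicates 3 and 4 it was 0.80 ± 0.58 (SE, edgeR adjusted p = 0.309), and without WT EtOH replicate 2 as well, which also enters the estimate of the spread, 0.79 ± 0.20 (SE, edgeR adjusted p = 0.013). Without fat-1 PF replicates 2 and 4 it was 4.98 ± 1.90 (SE, edgeR adjusted p = 0.0906), with a larger standard error and no smaller a change. In WT mice the change was 1.88 ± 1.22 (SE, edgeR adjusted p = 0.499), and 0.32 without these 3 libraries. The 3 high values were those of the 3 libraries with large intestine genes, and the part of these in the result was not tested.

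St3gal4 (ENSMUSG00000032038, chromosome 9 from 35046576 to 35119268, minus strand) adds sialic acid in the α2,3 linkage to galactose at the ends of chains, as do St3gal3 and St3gal6. St3gal4 stood at 2532, 2592, 2283 and 1927 CPM in WT PF mice and at 1815, 2533, 2849 and 1641 CPM in fat-1 PF mice. With EtOH it stood at 2246, 2066 and 1967 CPM in WT mice and at 1908, 2058, 129.7, 127 and 1612 CPM in fat-1 mice. Fat-1 EtOH replicates 3 and 4 lay below every other mouse, and the other 3 fat-1 EtOH mice averaged 14.5 times as much. WT EtOH replicate 2, which also carried large intestine genes, lay within the range of the other mice. The log2 fold change between fat-1 EtOH and fat-1 PF mice was -0.92 ± 0.65 (SE, edgeR adjusted p = 0.273) and did not pass, and without replicates 3 and 4 it was -0.22 ± 0.19 (SE, edgeR adjusted p = 0.387). In WT mice it was -0.16 ± 0.74 (SE, edgeR adjusted p = 0.944). Of its exon bases, 14.1% lie opposite 4930581F22Rik, which is not among the genes of the table.

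St3gal3 (ENSMUSG00000028538, chromosome 4 from 117932154 to 118134914, minus strand) was low, with 38 to 58 counts per PF mouse. St3gal3 stood at 5.68, 6.56, 5.55 and 5.92 CPM in WT PF mice and at 4.45, 5.33, 5.33 and 5.03 CPM in fat-1 PF mice. It stood at 8.95, 4.93 and 6.64 CPM in WT EtOH mice and at 5.42, 6.55, 40.7, 31.3 and 10.7 CPM in fat-1 EtOH mice. Fat-1 EtOH replicates 3 and 4 were the highest, replicate 5 was the next, and all 5 lay above the fat-1 PF mice. WT EtOH replicate 2 was the lowest WT EtOH mouse, unlike for St6galnac6. The log2 fold change was 1.91 ± 0.52 (SE, edgeR adjusted p = 0.0112) in fat-1 mice, and 0.61 ± 0.24 (SE, edgeR adjusted p = 0.0641) without replicates 3 and 4. Without fat-1 PF replicates 2 and 4 it was 1.95 ± 0.73 (SE, edgeR adjusted p = 0.0882). In WT mice it was 0.21 ± 0.57 (SE, edgeR adjusted p = 0.897). Relative to WT EtOH mice the fat-1 EtOH group was at 1.47 ± 0.56 (SE, edgeR adjusted p = 0.757), an unadjusted p of 0.0192 in edgeR, 0.13 without replicates 3 and 4, and -0.05 without WT EtOH replicate 2 as well.

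St3gal6 (ENSMUSG00000022747, chromosome 16 from 58468125 to 58524243, minus strand) stood at 26.2, 29.6, 25.3 and 12.9 CPM in WT PF mice and at 29.5, 58.96, 28.8 and 55.4 CPM in fat-1 PF mice. It stood at 14.3, 7.87 and 13.4 CPM in WT EtOH mice and at 10.1, 14.2, 19.4, 15.8 and 16.5 CPM in fat-1 EtOH mice. All fat-1 EtOH mice lay below all fat-1 PF mice, and in WT mice only PF replicate 4 lay among the EtOH-fed mice. St3gal6 was the one member that was lower in fat-1 EtOH mice and passed the test, and it fell by 1.504 on the log2 scale (SE 0.29, edgeR adjusted p = 0.00154, exact permutation p = 0.0159), from 43.1 ± 16.2 CPM (SD, n = 4) to 15.2 ± 3.41 CPM (SD, n = 5). Without fat-1 EtOH replicates 3 and 4 the value was -1.63 ± 0.34 (SE, edgeR adjusted p = 0.00448). The highest values, in fat-1 PF replicates 2 and 4, were in the libraries with the highest proximal small intestine sums, and without these 2 the log2 fold change was -0.94 ± 0.30 (SE, edgeR adjusted p = 0.052). In WT mice it was -0.98 ± 0.34 (SE, edgeR adjusted p = 0.234) and limma voom gave an adjusted p of 0.0258. Of the exon bases of St3gal6, 26.0% lie opposite exons of Dcbld2, and reads of the 2 genes can be told apart only if counting used the strand, which the sources used here do not give. Dcbld2 stood at 4.91 to 8.22 CPM in PF mice and 8.73 to 13.02 CPM in EtOH-fed mice, in the opposite direction to St3gal6.

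Per kb of exon, the 3 α2,3-sialyltransferases together were mostly St3gal4. It made up 99.2 to 99.4% of their sum in WT PF mice, 98.1 to 99.3% in fat-1 PF mice and 99.3 to 99.6% in WT EtOH mice. In fat-1 EtOH mice its share ran from 71.3 to 99.5%, while the sum ran from 57.4 to 709 CPM per kb against 572 to 981 in fat-1 PF mice.

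C1galt1 (ENSMUSG00000042460, chromosome 6 from 7844842 to 7875687, plus strand) is the core 1 galactosyltransferase, without which most extended mucin chains are not made. C1galt1 stood at 111, 113, 109 and 135 CPM in WT PF mice and at 136, 70.6, 140.0 and 87.1 CPM in fat-1 PF mice. It stood at 129, 139 and 151 CPM in WT EtOH mice and at 134, 135, 322, 201 and 116 CPM in fat-1 EtOH mice. Fat-1 EtOH replicates 3 and 4 lay above all other mice, the other 3 lay within the range of the PF mice, and fat-1 PF replicates 2 and 4 were the lowest. The log2 fold change in fat-1 mice was 0.75 ± 0.28 (SE, edgeR adjusted p = 0.0472), just within the limit, with an exact permutation p of 0.159. It was 0.27 ± 0.20 (SE, edgeR adjusted p = 0.318) without replicates 3 and 4 and 0.40 ± 0.31 (SE, edgeR adjusted p = 0.373) without fat-1 PF replicates 2 and 4, and in WT mice it was 0.26 ± 0.31 (SE, edgeR adjusted p = 0.748). Of the 16 fits that each left out 1 mouse, only 5 called C1galt1 in fat-1 mice, and the fit with a looser filter did not.

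Gcnt1 (ENSMUSG00000038843, chromosome 19 from 17326141 to 17372844, minus strand) makes the core 2 branch. Gcnt1 stood at 21.3, 15.2, 20.7 and 36.2 CPM in WT PF mice and at 9.43, 3.09, 14.1 and 5.52 CPM in fat-1 PF mice. It stood at 25.7, 43.98 and 40.3 CPM in WT EtOH mice and at 36.1, 24.7, 42.1, 49.8 and 50.5 CPM in fat-1 EtOH mice. The fat-1 PF mice lay below every other mouse, with replicates 2 and 4 lowest, and the EtOH-fed mice of both genotypes overlapped. Fat-1 mice had 40.6 ± 10.7 CPM (SD, n = 5) with EtOH and 8.03 ± 4.804 CPM (SD, n = 4) without, a log2 fold change of 2.34 ± 0.39 (SE, edgeR adjusted p = 0.0007) with an exact permutation p of 0.0159. It was the one member called in all the fits named above: 2.22 ± 0.43 (SE, edgeR adjusted p = 0.0035) without fat-1 EtOH replicates 3 and 4, and 1.80 ± 0.38 (SE, edgeR adjusted p = 0.0155) without fat-1 PF replicates 2 and 4. In WT mice it was 0.65 ± 0.40 (SE, edgeR adjusted p = 0.466). The 2 libraries with large intestine genes averaged 1.24 times the other fat-1 EtOH mice for Gcnt1.

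Gcnt3 (ENSMUSG00000032226, chromosome 9 from 70031496 to 70038088, minus strand) is the mucin-type branching enzyme and makes core 2 and core 4. Gcnt3 stood at 202, 163, 103 and 204 CPM in WT PF mice and at 187, 120.4, 239 and 166 CPM in fat-1 PF mice. It stood at 275, 355 and 181 CPM in WT EtOH mice and at 226, 198, 698, 494 and 123 CPM in fat-1 EtOH mice. Fat-1 EtOH replicates 3 and 4 were the highest of all mice and WT EtOH replicate 2 was the third, and the remaining EtOH-fed mice overlapped with the PF mice except WT EtOH replicate 1. The log2 fold change was 0.97 ± 0.43 (SE, edgeR adjusted p = 0.0928) in fat-1 mice, 0.06 ± 0.31 (SE, edgeR adjusted p = 0.896) without replicates 3 and 4, and 0.69 ± 0.48 (SE, edgeR adjusted p = 0.533) in WT mice. Per kb, Gcnt1 made up 1.34 to 3.02% of the sum of the 3 core enzymes in fat-1 PF mice, below the 4.46 to 8.28% of WT PF mice and the 3.28 to 15.5% of fat-1 EtOH mice.

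**Figure D3:**
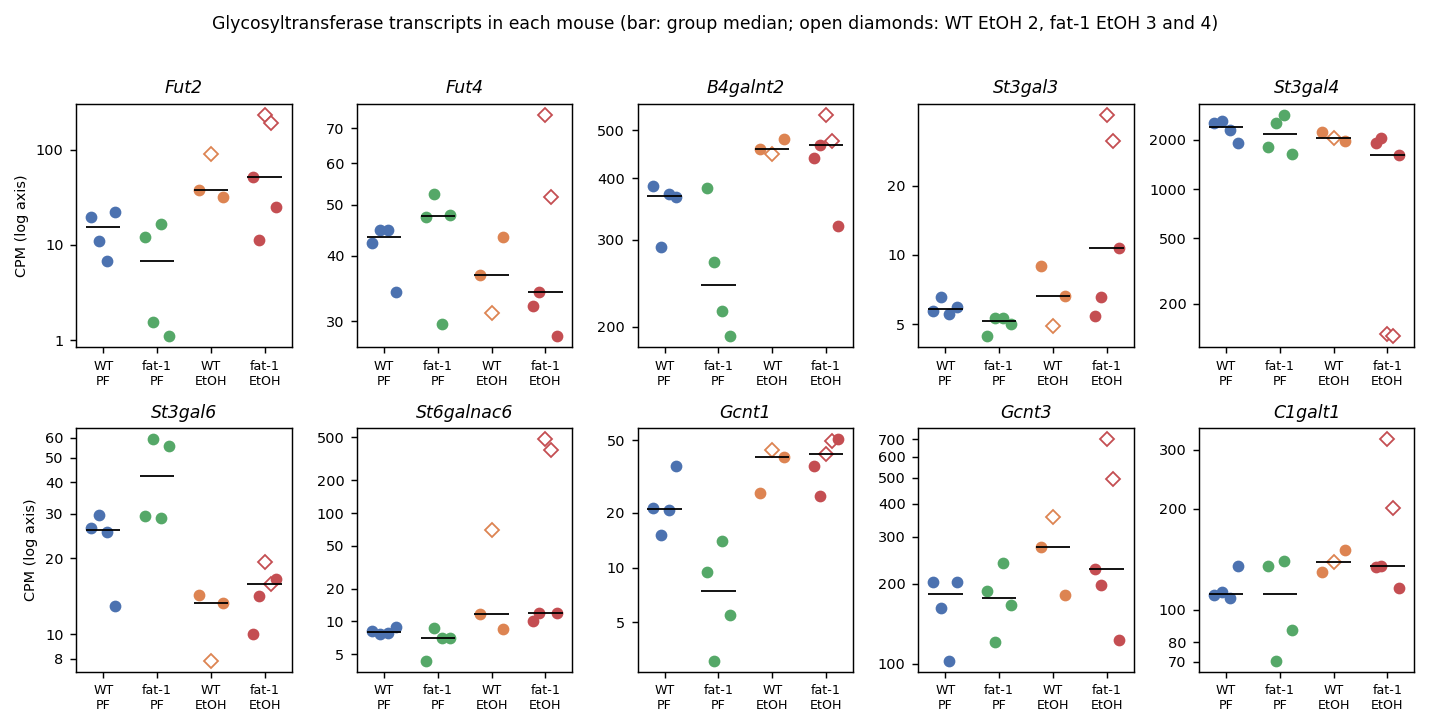
CPM of each glycosyltransferase in each of the 16 mice (log axis), by group, with a bar for the group median and open diamonds for WT EtOH replicate 2 and fat-1 EtOH replicates 3 and 4. The diamonds of fat-1 EtOH mice lie at 478 and 379 CPM for St6galnac6 and at 129.7 and 127 CPM for St3gal4, apart from the other mice. For B4galnt2 they lie at 538 and 475 CPM, the first of these the highest of the 16, and for Gcnt1 they lie among the other EtOH-fed mice.

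Genotype was compared within each diet. On the PF diet, 0 of the 10 genes differed between the genotypes in edgeR's test, as did 0.0% of all genes. At an unadjusted p under 0.05 there were 2, Gcnt1 and St3gal6, and 12.7% of all genes. Gcnt1 was lower in every fat-1 PF mouse than in any WT PF mouse, at 8.03 ± 4.804 CPM (SD, n = 4) against 23.3 ± 8.99 CPM (SD, n = 4), with a log2 difference of -1.54 ± 0.39 (SE, edgeR adjusted p = 0.187) and an exact permutation p of 0.0286, the smallest that 4 against 4 mice allow. St3gal3 was also lower in every fat-1 PF mouse than in any WT PF mouse (4.45 to 5.33 CPM against 5.55 to 6.56 CPM, the same exact permutation p of 0.0286), with a log2 difference of -0.24 ± 0.54 (SE, edgeR adjusted p = 0.905). DESeq2 called 1 member, Gcnt1 (adjusted p = 0.0185, with 1.18% of all genes), and limma voom called 0 (0.217% of all genes). Without fat-1 PF replicates 2 and 4 the difference of Gcnt1 was -1.01 ± 0.38 (SE, edgeR adjusted p = 1.0). St3gal6 was 0.88 ± 0.30 (SE, edgeR adjusted p = 0.239) and overlapped between the groups, and without those 2 libraries it was 0.30. With EtOH, 0 of the 10 differed between the genotypes with edgeR (0.00724% of all genes), DESeq2 (0.0363%) and limma voom (0.00724%). St3gal3 reached an unadjusted p under 0.05 in edgeR, as did 4.86% of all genes. These comparisons share their groups with those of EtOH against PF, so the low Gcnt1 of fat-1 PF mice enters both.

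Across the 16 libraries, the members' log2 CPM were related in 2 patterns. Of the 45 pairs of members, 19 had a Pearson's r above 0.5 and 10 had one below -0.5, and over the 13 libraries without the 3 that carried large intestine genes these were 12 and 10. St3gal3, St6galnac6, Gcnt3 and C1galt1 ran together by Pearson's r (0.71 to 0.87 among them), although their rho among each other ran from 0.221 to 0.735. They ran against St3gal4 (r from -0.94 to -0.76), although their rho with St3gal4 was only -0.46 to -0.285. Without WT EtOH replicate 2 and fat-1 EtOH replicates 3 and 4, the r of these 4 genes with St3gal4 lay between -0.19 and 0.12, so that the relation with St3gal4 rested on those libraries. Among the 4 genes, St3gal3 and St6galnac6 (r = 0.75, rho = 0.68) and Gcnt3 and C1galt1 (r = 0.595, rho = 0.56) still ran together over the 13, and the other pairs had an r of -0.02 to 0.18. Gcnt1 ran against St3gal6 (r = -0.88, rho = -0.76 over 16 libraries, and r = -0.92, rho = -0.87 over 13) and with Fut2 (r = 0.85, rho = 0.84, and r = 0.87, rho = 0.80 over 13). That pattern was seen with and without the 3 libraries. The points share diet, depth and scaling within each library, and these values are descriptions.

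**Figure D4:**
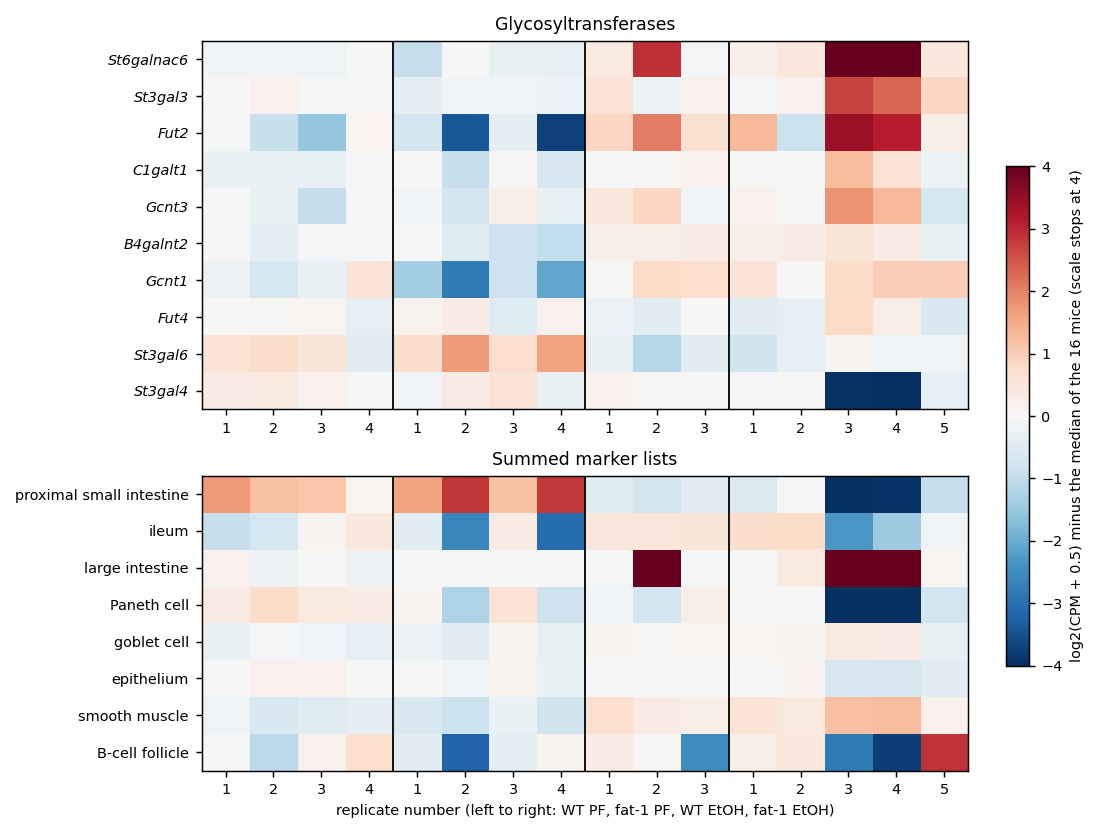
Deviation of log2(CPM + 0.5) from the median of the 16 mice, for the 10 glycosyltransferases (top) and for the summed marker lists (bottom), with 1 column per mouse and lines between the groups. In fat-1 EtOH replicates 3 and 4, St6galnac6 and the large intestine sums are high and St3gal4, the proximal small intestine sums and the Paneth cell sums are low.

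The genes most like each member over the 16 libraries, by Pearson's r of log2 CPM, were taken from all genes tested. For St6galnac6 they were Selenbp1, Sult1a1 and Mettl7b (r = 0.98 each), the last of these one of the large intestine markers, and their r was 0.51 to 0.76 over the 13 libraries. For St3gal4 they were Ms4a18, Slc26a6 and Dpp4 (r = 0.99 each), a chloride and bicarbonate exchanger and a brush border peptidase among them, and their r was 0.63 to 0.77 over the 13. For St3gal3 they were Ffar2, Dixdc1 and C1qtnf6 (r = 0.96 to 0.98, and 0.73 to 0.86 over 13). Fut2 was most like Gna14, Agpat4 and Tspan1 (r = 0.96 to 0.97, and 0.93 to 0.94 over 13). C1galt1 was most like Agr2, Casc4 and Ttc39a (r = 0.95 to 0.97, and 0.90 to 0.95 over 13), of which Agr2 is the goblet cell disulfide isomerase needed for mucin folding. Gcnt3 was most like Slc35a2, which brings UDP-galactose into the Golgi, Dhrs9 and Zdhhc13 (r = 0.92 to 0.94, and 0.69 to 0.81 over 13). Gcnt1 was most like Plagl1, Ceacam1 and Hoxb6 (r = 0.94 to 0.95, and 0.93 to 0.96 over 13). Hoxb6 had its lowest levels, 1.54 and 2.09 CPM, in the same fat-1 PF mice in which Gcnt1 was lowest. St3gal6 was most like Abcb9, Tle1 and Tbc1d22b (r = 0.95 to 0.96, and 0.95 to 0.96 over 13), B4galnt2 like Gnl3l, Ston1 and Atp11b (r = 0.93 to 0.94, and 0.94 to 0.95 over 13), and Fut4 like Fbxo3, Ugt1a7c and Ugt1a1 (r = 0.88 to 0.90, and 0.85 to 0.89 over 13).

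Other genes of glycan synthesis were described from 6 lists, of which 80 genes were in the table and 67 were tested. Between fat-1 EtOH and fat-1 PF mice 23 of the 67 passed, 16 higher and 7 lower, or 34.3% against the 37.4% of all genes. In the other 3 comparisons of 2 groups and in the interaction, 0 of the 67 passed edgeR's test. Without fat-1 EtOH replicates 3 and 4, 19 of 67 passed in fat-1 mice, or 28.4% against 30.8% of all genes, and without fat-1 PF replicates 2 and 4, 3 of 70 did, or 4.29% against 13.9% of all genes.

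Of the GALNT enzymes that start the chains, 4 rose and 2 fell among 9 tested in fat-1 mice, with a median log2 fold change of 0.47, where 37.4% of all genes passed. The list had 2 higher and 1 lower (median 0.15) without fat-1 EtOH replicates 3 and 4, and 0 of 9 passed (median 0.29) without fat-1 PF replicates 2 and 4. Galnt5 had the largest rise (1.41 ± 0.41 SE, edgeR adjusted p = 0.0156) and Galnt1 the largest fall (-0.64 ± 0.24 SE, edgeR adjusted p = 0.044). Galnt5 was 0.67 (edgeR adjusted p = 0.106) and Galnt1 was -0.25 (edgeR adjusted p = 0.0849) without fat-1 EtOH replicates 3 and 4. In the fit that left out fat-1 PF replicates 2 and 4, Galnt5 was 1.07 (edgeR adjusted p = 0.166) and Galnt1 was -0.67 (edgeR adjusted p = 0.153), so both calls were lost either way. Of 12 core and extension enzymes, 2 rose and 1 fell (median 0.11), where 37.4% of all genes passed. There were 1 and 1 (median 0.10) without those EtOH libraries (30.8% of all genes), and 0 and 0 (median 0.06) without those PF libraries (13.9%). A4gnt, which caps gastric-type mucin chains with N-acetylglucosamine, rose most (4.64 ± 1.12 SE, edgeR adjusted p = 0.00609). B3gnt3, which extends core 1, fell (-0.43 ± 0.11 SE, edgeR adjusted p = 0.00738), with -0.49 (edgeR adjusted p = 0.0103) without fat-1 EtOH replicates 3 and 4 and -0.39 (edgeR adjusted p = 0.0704) without fat-1 PF replicates 2 and 4. A4gnt stood at 1.48, 0.842, 1.23 and 1.35 CPM in fat-1 PF mice and at 3.71, 2.89, 90.5, 56.4 and 2.05 CPM in fat-1 EtOH mice, so that replicates 3 and 4 were far above the others. Without them its log2 fold change was 1.23 ± 0.33 (SE, edgeR adjusted p = 0.0145), and without fat-1 PF replicates 2 and 4 it was 4.49 (edgeR adjusted p = 0.0788). C1galt1c1, the chaperone that C1galt1 needs, was 0.01 ± 0.16 (SE, edgeR adjusted p = 0.96).

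Of 14 other fucosyl- and sialyltransferases, 5 rose and 1 fell (median 0.43), where 37.4% of all genes passed. Without fat-1 EtOH replicates 3 and 4 there were 3 higher and 1 lower (median 0.55), and without fat-1 PF replicates 2 and 4 there were 2 higher and 0 lower of 15 (median 0.55). St3gal5, the ganglioside GM3 synthase, rose most (3.01 ± 1.02 SE, edgeR adjusted p = 0.0323). Its call was lost without fat-1 EtOH replicates 3 and 4, at 1.04 (edgeR adjusted p = 0.38), and without fat-1 PF replicates 2 and 4, at 3.01 (edgeR adjusted p = 0.167). Fut8, the core fucosyltransferase of N-glycans, fell (-0.40 ± 0.13 SE, edgeR adjusted p = 0.029), with -0.48 (edgeR adjusted p = 0.0207) without the EtOH pair and -0.30 (edgeR adjusted p = 0.12) without the PF pair. St3gal5 stood at 1.995, 1.02, 13.2, 31.2 and 4.88 CPM in fat-1 EtOH mice and at 18.6 CPM in WT EtOH replicate 2 against at most 2.06 CPM in the other 2 WT EtOH mice. Of 17 genes of nucleotide sugar supply, 3 rose and 2 fell (median 0.29), where 37.4% of all genes passed. There were 1 higher and 3 lower (median 0.10) without those EtOH libraries (30.8% of all genes), and 0 and 0 (median 0.15) without those PF libraries (13.9%). Slc35a1, the CMP-sialic acid transporter of the Golgi, rose (1.88 ± 0.52 SE, edgeR adjusted p = 0.0116). Slc35a1 stood at 26.5, 21.2, 28.1 and 17.7 CPM in fat-1 PF mice and at 35.2, 31.5, 184, 150.1 and 29.9 CPM in fat-1 EtOH mice, highest in replicates 3 and 4, without which its log2 fold change was 0.49 (edgeR adjusted p = 0.0429). Without fat-1 PF replicates 2 and 4 it was 1.65 (edgeR adjusted p = 0.122). Galk1, galactokinase, fell most (-1.13 ± 0.29 SE, edgeR adjusted p = 0.00797). Galk1 stood at 30.1, 61.6, 22.4 and 54.4 CPM in fat-1 PF mice, highest in replicates 2 and 4, without which it was -0.45 (edgeR adjusted p = 0.25). Galk1 was -1.52 (edgeR adjusted p = 0.00291) without fat-1 EtOH replicates 3 and 4. Of 10 genes of blood group and carbohydrate sulfation enzymes, B3galt2 rose (2.67 ± 0.67 SE, edgeR adjusted p = 0.00701) and B4galnt1, the GM2 synthase, fell (-1.01 ± 0.14 SE, edgeR adjusted p = 0.000296, median of the list 0.12). The list had 3 higher and 2 lower (median 0.15) without those EtOH libraries (30.8% of all genes). It had 0 higher and 1 lower of 12 (median 0.39) without those PF libraries (13.9%). B3galt2 was 1.82 (edgeR adjusted p = 0.0365) without fat-1 EtOH replicates 3 and 4 and 2.69 (edgeR adjusted p = 0.0741) without fat-1 PF replicates 2 and 4. B4galnt1 was lower in all fat-1 EtOH mice (214 to 245 CPM) than in all fat-1 PF mice (382 to 550 CPM), and its value was -0.95 without fat-1 EtOH replicates 3 and 4 and -0.84 without fat-1 PF replicates 2 and 4, both past the test. Of 5 mucin carriers tested, Muc2, the secreted mucin of goblet cells, rose (2.04 ± 0.52 SE, edgeR adjusted p = 0.00827, median of the list 0.39). Muc2 stood at 1022, 596, 1262 and 1078 CPM in fat-1 PF mice and at 1576, 1701, 8164, 7544 and 1299 CPM in fat-1 EtOH mice, and without replicates 3 and 4 its log2 fold change was 0.65 ± 0.21 (SE, edgeR adjusted p = 0.0325). That of Muc2 was 1.82 (edgeR adjusted p = 0.0948) without fat-1 PF replicates 2 and 4, so that 0 of 5 passed (median 0.21, with 13.9% of all genes). The median of the list without the EtOH libraries was 0.07. The 8 goblet cell markers, Muc2 among them, summed to 10701 to 15897 CPM in fat-1 PF mice and to 11938 to 18838 CPM in fat-1 EtOH mice.

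**Figure D5:**
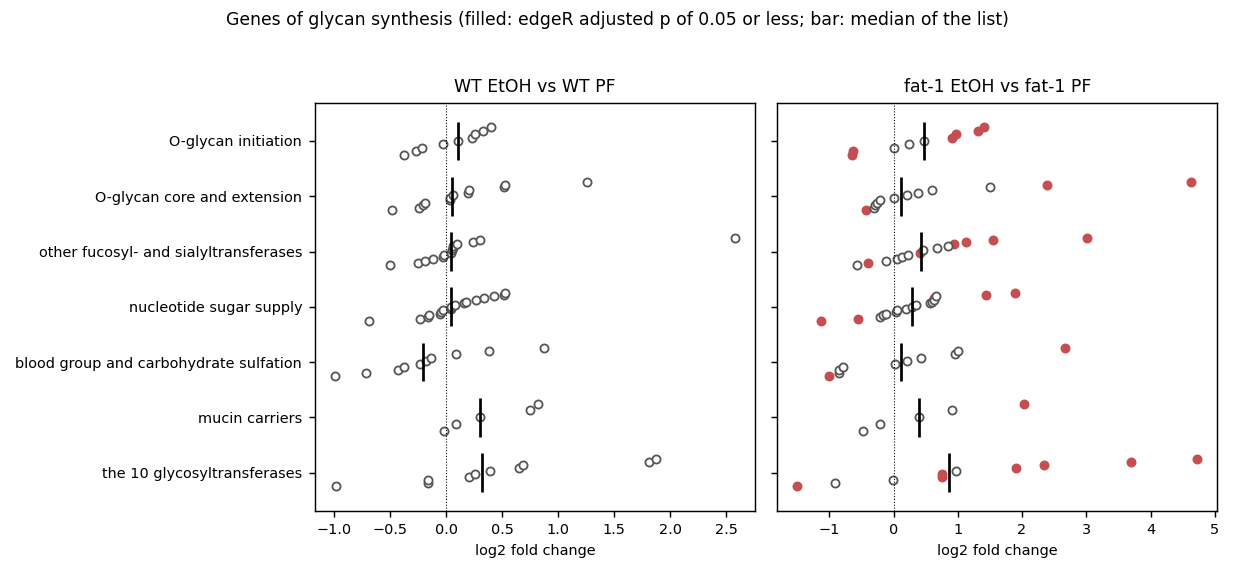
Log2 fold change of each tested gene of the 6 lists and of the 10 glycosyltransferases, in WT mice (left) and in fat-1 mice (right), EtOH against PF. Filled points passed edgeR's test, which none did in WT mice, and bars are medians of each list.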

How the data were processed

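The ileum of 16 mice was profiled with stranded libraries of polyadenylated RNA, read as pairs of 75 bases. The authors aligned the reads to mm10 with tophat2, guided by Ensembl transcripts, counted them per gene with htseq and deposited these counts, with no normalization. The strand setting of the counting is not given in the sources used here. The transgene is not a mouse gene and was not analysed here. Counts were analysed with edgeR 4.0.16 in R 4.3.3 (filterByExpr, TMM, a quasi-likelihood fit with 1 mean per group over all 16 libraries, robust), with Benjamini-Hochberg adjustment over all genes tested at 0.05. The study's own differential expression came from cuffdiff2, which needs aligned reads. CPM are over TMM-adjusted library sizes, and single genes were also compared by exact permutation of the mice, two-sided, of log2(CPM + 0.5). Log2 CPM used a prior count of 2. Positions and exon lengths are those of GENCODE M21 (GRCm38, the build of mm10). Levels of different genes were compared as CPM per kb of exon. Tables were handled with python 3.11.15 and pandas 2.3.3, and figures drawn with matplotlib 3.10.9.

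The genes named are the 10 glycosyltransferases, from each pathway list the called genes with the largest positive and negative change in fat-1 mice, for each member the 3 genes with the highest correlation, and marker genes on which a result turns. C1galt1c1, St6galnac4 and Dcbld2 were named after their values were seen. The members and lists were chosen with earlier results of these data known. On simulated data with the WT mice's group sizes, the fit called 58 of 100 genes given a 2-fold change, 89 of 100 given a 4-fold change and 4 of 13494 others, out of 13694 fitted. With those of the fat-1 mice it called 70 of 100, 94 of 100 and 7 of 13490, out of 13690. The changed genes were picked at random above a low level, counts were drawn gene by gene, and no simulated library stood apart. These rates are averages over such genes and do not give the rate for any single member. The alternatives were DESeq2 1.42.0, edgeR with upper-quartile scaling or with size factors as DESeq2 computes them, limma voom (3.58.1) with a quality weight per library, a loose filter that kept genes with 1 count in any mouse, a strict one that asked for 10 in every mouse, fits of 2 groups alone, a block for the replicate number, and leaving out mice. Nothing in the labels says that mice came from separate cages or litters. The p-values judge differences against the spread between these mice, which edgeR estimated over all 4 groups.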

Additional observations from a re-analysis of the deposited data

Results flagged for a closer look

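In the 30 groups of 4 or 5 values tested over the 10 genes, 1 value stood apart from its group by Dixon's criterion: C1galt1 in WT PF replicate 4, at 135 CPM against 109 to 113 CPM in the other 3 WT PF mice. Its gap was 0.831 of the range of the group on the log2 scale, just over the critical value of 0.829. The criterion looks at 1 extreme value at a time. It could not flag fat-1 EtOH replicates 3 and 4 where they stood apart together, as for St6galnac6 and St3gal4. Chance flags about 1 in 20 groups.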

How the results depend on the processing

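Of the members' 50 log2 fold changes over the 5 comparisons, the 26 that the text turns on were recomputed under each alternative. Of these 698 values, 647 kept their direction and their side of the threshold, 31 lost the call, 4 gained it and 16 changed sign. The number of members called in fat-1 mice, 7, was 3 with limma voom (26.8% of all genes) and 3 without fat-1 EtOH replicates 3 and 4 (30.8%). It was 4 without WT EtOH replicate 2 as well (29.7%) and 1 without fat-1 PF replicates 2 and 4 (13.9%). When each mouse was left out the number ran from 6 to 8, with 28.5 to 39.4% of all genes. It was 8, with Gcnt3 among them, without fat-1 EtOH replicate 5 (37.2%). In WT mice, 0 became 1 with limma voom (20.7% of all genes), and leaving out each mouse gave 0 (0.0 to 0.479%). For genotype on the PF diet, 0 became 1 with DESeq2 (1.18% of all genes). Leaving out each mouse gave 0 to 1, with Gcnt1 called at -1.95 without fat-1 PF replicate 3 (0.826% of all genes). Fut4 in fat-1 mice changed sign to 0.15 with upper-quartile scaling, 0.03 with the stricter filter, 0.01 with only the 2 groups, 0.07 with the replicate block and 0.19 without fat-1 PF replicates 2 and 4, and ran from -0.27 to 0.13 when each mouse was left out. St3gal3 in WT mice ran from -0.03 to 0.39 when each mouse was left out, and in the comparison of genotypes with EtOH it was -0.05 without the 3 libraries with large intestine genes. The cause was not tested. Among the other 24, all with an adjusted p over 0.05, those of Fut4, St3gal4, Gcnt3 and C1galt1 for genotype on the PF diet, of Fut4, B4galnt2, Gcnt1 and Gcnt3 for genotype with EtOH, and of Fut4 and Gcnt3 for the interaction changed sign when a mouse was left out. With fat-1 EtOH replicates 3 and 4 left out, the difference of genotype with EtOH went from 2.58 to -1.40 for St6galnac6 (edgeR unadjusted p = 0.0356, adjusted p = 1.0), and to 0.17 without WT EtOH replicate 2 as well, from 0.95 to -0.86 for Fut2, from 0.38 to -0.13 for C1galt1, from 0.36 to -0.58 for Gcnt3 and from 0.25 to -0.25 for Fut4. The interaction went from 2.85 to -1.09 for St6galnac6 and also changed sign for Fut4 and Gcnt3. Other settings turned the sign of differences of Fut2, Fut4, B4galnt2, St3gal6, Gcnt1, Gcnt3 and C1galt1. None of these passed the adjusted test. The stricter filter left out Fut2, the looser one lost the call of C1galt1, and fits of 2 groups alone lost those of C1galt1 and St3gal3 and were not run for the interaction. With the replicate number as a block, 7 members were called in fat-1 mice (34.4% of all genes) and 0 in each other comparison (0.0 to 0.13%). The numbers do not pair the mice: mice of the same number correlated at -0.0225 on average (21 pairs) and others at 0.00703 (74 pairs). For the 67 pathway genes the block was not run. Without fat-1 EtOH replicates 3 and 4, 3 of the 67 passed in WT mice, or 4.48% against 2.01% of all genes. Depth limits St3gal3 and, in fat-1 PF mice, Fut2 and Gcnt1, whose lowest libraries held 38, 9 and 22 counts.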
